A study of Mus musculus with 17 samples.

Results

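The core circadian clock genes followed here were 10 genes taken by symbol from the table of counts. They were the activator genes Clock and Npas2, the period genes Per1, Per2 and Per3, the cryptochrome genes Cry1 and Cry2, the nuclear receptor genes Nr1d1 and Nr1d2, and Bhlhe41. Each symbol matched a single row, which gave 10 of the 55414 genes in the table. All 10 were among the 17717 genes that passed the filter on low counts.

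The mammalian clock is a feedback loop of transcription that runs in nearly every tissue with a period of about a day. CLOCK or its relative NPAS2 pairs with BMAL1 (gene Arntl) and switches on genes that carry E-box sequences, among them the Per, Cry and Nr1d genes and Bhlhe41. PER and CRY proteins then block that pair, and REV-ERBα and REV-ERBβ (genes Nr1d1 and Nr1d2) repress Arntl, Clock and Npas2, so that activator and repressor transcripts peak at different times of day. In brown fat, REV-ERBα is known as a repressor of thermogenic genes, and Per1 and Per2 also answer to hormones and temperature. A transcript of such a gene sampled at a single time therefore carries both its level and its phase. These cannot be told apart in the present data, whose labels give no series of sampling times. The sources used here also do not state the time of day at which tissue was taken.

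Brown adipose tissue came from C57BL/6J mice in 4 groups, with 5 HFD knockout, 5 HFD wild-type, 3 chow knockout and 4 chow wild-type libraries. The knockout (Acbp BAd-KO) is a conditional deletion, in brown adipocytes, of Acbp, which encodes acyl-CoA-binding protein and is annotated as Dbi. HFD is a high-fat diet with 45% of its calories as fat, given for 12 weeks, and chow is the standard diet. Per the labels' protocols, housing was at 22 °C with a day of 12 h light that began at 8 am and ended at 8 pm. The sources used here do not give the Cre driver, the sex, the age or the alleles that the wild-type mice carry. The labels do not say that libraries are separate animals, so p-values measure the spread between these libraries, and in whole tissue fewer cells of a type and less RNA per cell cannot be told apart.

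Library totals were 60.2 to 101 megacounts in HFD knockout, 60 to 105 in HFD wild-type, 47.2 to 49.7 in chow knockout and 39.6 to 43.9 in chow wild-type. Levels below are CPM, the count divided by the library total in megacounts after scaling with trimmed mean of M-values (TMM) factors, and intervals are ± SD over libraries. Dbi stood at 111 to 165 CPM in HFD knockout against 658 to 795 CPM in HFD wild-type, and at 88.3 to 103 CPM in chow knockout against 949 to 1104 CPM in chow wild-type. All 10 brown adipocyte markers were in the table, and Ucp1 stood at 1695 to 4055 CPM over all libraries. The summed level of 15 skeletal muscle markers was 39.1 to 6808 CPM in HFD knockout, 30.1 to 4223 CPM in HFD wild-type, 28.9 to 1046 CPM in chow knockout and 323 to 1694 CPM in chow wild-type. The summed level of 15 hepatocyte markers was 9.94 to 277 CPM in HFD knockout, 5.16 to 219 CPM in HFD wild-type, 22.4 to 83.8 CPM in chow knockout and 17.4 to 19.9 CPM in chow wild-type. Cyp2e1 made up most of the chow wild-type sum, at 14.6 to 17.8 CPM, and stood at 11.9 to 57.5 CPM in chow knockout. Alb stood at 0 to 0.816 CPM in chow wild-type and at 4.08 to 38.1 CPM in chow knockout. The part of muscle and liver RNA in the results below was not tested beyond the fits that leave out or adjust for them. Each library has a number in its label, and the numbers fall into 4 runs with gaps between them. From low to high these hold chow wild-type 1 and 2, then chow wild-type 3 and 4 with the chow knockout, then HFD wild-type with HFD knockout 1, and then HFD knockout 2 to 5.

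**Figure D1:**
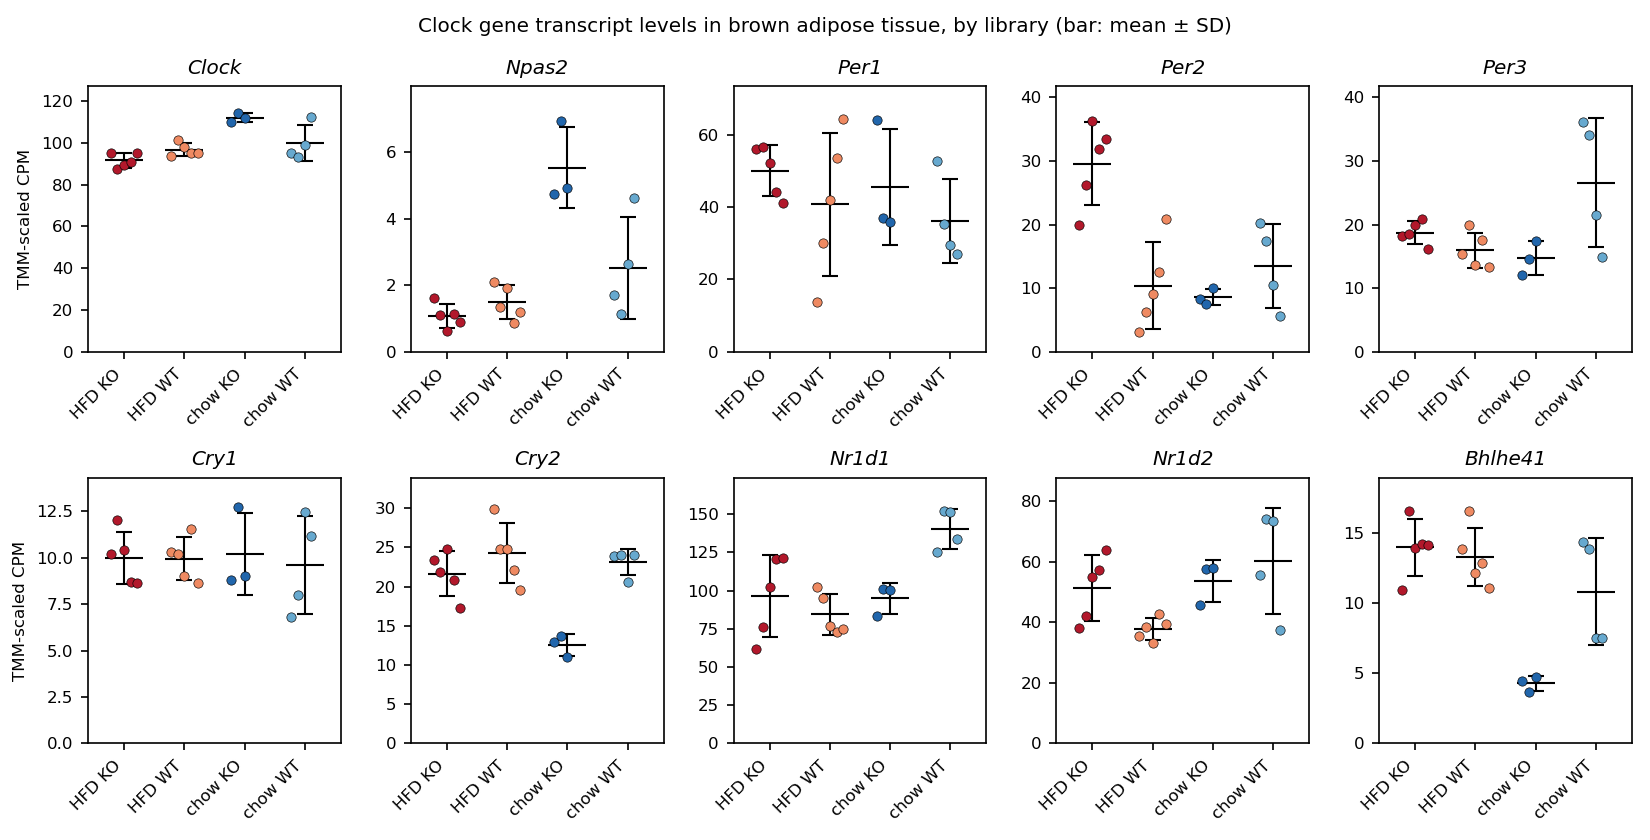
TMM-scaled CPM (y axes, from 0) of the 10 clock genes in each library (points) of the 4 groups, with the mean and SD as bars. Cry2 and Bhlhe41 lie lower in all 3 chow knockout libraries than in every chow wild-type library, Npas2 is highest in the chow knockout, and Per2 reaches 19.9 to 36.3 CPM in the HFD knockout.

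On chow, 2 of the 10 clock genes fell in the knockout, both of them repressors: Bhlhe41, whose protein DEC2 competes for E-boxes, and the cryptochrome gene Cry2. None rose by edgeR, DESeq2 or limma-voom, and the activator gene Npas2 stood highest in the knockout libraries without passing the test. Among all genes tested, 0.519% were called higher and 0.536% lower in this comparison. The call threshold, here and below, was an adjusted p of 0.05 or less in edgeR's quasi-likelihood test, with Benjamini-Hochberg adjustment over all 17717 genes. Shares of all genes called are those of edgeR, and those of DESeq2 and limma-voom are not given.

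Bhlhe41 (ENSMUSG00000030256.12, on chromosome 6) had 4.47, 3.63 and 4.70 CPM in chow knockout 2, 3 and 4, against 14.4, 13.8, 7.54 and 7.53 CPM in chow wild-type 1 to 4. The groups did not overlap, and wild-type 1 and 2 were nearly double wild-type 3 and 4. The log2 fold change was -1.34 ± 0.23 (SE, adjusted p = 0.0136), a level 2.53-fold lower in the knockout. The call ended without chow knockout 3 (adjusted p = 0.0813) or chow knockout 4 (0.0552). It also ended in the fit with runs of library numbers, which leaves out wild-type 1 and 2 and adds a term for HFD knockout 2 to 5 (-0.82 ± 0.16, adjusted p = 0.0893). Bhlhe41 also missed the threshold with limma-voom (adjusted p = 0.064), with only chow libraries in the fit (0.0517), with muscle and liver scores (0.0518) and without muscle-rich libraries (0.17), and its sign was negative under every alternative run.

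Cry2 (ENSMUSG00000068742.12, on chromosome 2), which encodes a direct inhibitor of the CLOCK and BMAL1 pair, had 12.9, 13.7 and 11.1 CPM in chow knockout 2, 3 and 4. In chow wild-type 1 to 4 it had 23.9, 24.0, 20.6 and 24.1 CPM, so all knockout libraries lay below all wild-type ones. The log2 fold change was -0.88 ± 0.14 (SE, adjusted p = 0.00796), or 1.84-fold lower in the knockout. Within the run shared by both genotypes, wild-type 3 and 4 stood at 20.6 and 24.1 CPM and the groups still did not overlap. In that run the wild-type libraries carry the lower numbers. In the fit with runs the value was -0.83 ± 0.17 and not called (adjusted p = 0.104). The call also ended without chow knockout 4 (adjusted p = 0.0552) and in the smaller fit without the muscle-rich libraries (-0.86 ± 0.12, adjusted p = 0.064). Its close relative Cry1 had 8.82, 12.7 and 9.03 CPM in the knockout against 6.82, 8.00, 12.5 and 11.2 CPM in wild-type, and the groups overlapped (0.08 ± 0.19, adjusted p = 0.878).

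Npas2, which can stand in for CLOCK as the partner of BMAL1, had 4.74, 6.94 and 4.91 CPM in chow knockout 2, 3 and 4, against 1.72, 1.12, 2.64 and 4.62 CPM in chow wild-type 1 to 4. Every knockout library was above every wild-type library, with chow wild-type 4 next to the knockout range, and the change was not called (1.13 ± 0.40, adjusted p = 0.185). Clock had 109.8, 114 and 112 CPM in the knockout against 95.1, 93.2, 98.9 and 112 CPM in wild-type, overlapping at chow wild-type 4 (0.17 ± 0.06, adjusted p = 0.215). Nr1d1 had 83.4, 101 and 100.4 CPM in the knockout against 125, 152, 151 and 134 CPM in wild-type. These ranges did not overlap either, and the log2 fold change of -0.57 ± 0.20 was not called (adjusted p = 0.176), although it was when only the chow groups entered the fit (adjusted p = 0.0381).

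Per3 had 12.1, 14.6 and 17.4 CPM in chow knockout 2, 3 and 4, against 36.0, 34.0, 21.5 and 14.9 CPM in chow wild-type 1 to 4. Wild-type 4 lay inside the knockout range, and the change was not called (-0.86 ± 0.24, adjusted p = 0.0965), but it was without chow wild-type 4 (-1.05, adjusted p = 0.0215) and with DESeq2 (adjusted p = 0.0141). Per2 had 8.23, 7.52 and 10.1 CPM in the knockout against 20.3, 17.5, 10.5 and 5.71 CPM in wild-type (-0.65 ± 0.49, adjusted p = 0.576). In the fit with runs, which has no wild-type 1 and 2, the log2 fold change of Per2 was 0.08, so its sign is not stable. Per1 (0.33 ± 0.37) and Nr1d2 (-0.16 ± 0.21) had overlapping groups and were not called.

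In all, 4 of the 10 genes had chow groups that did not overlap (Npas2 higher, Cry2, Nr1d1 and Bhlhe41 lower), where 12.8% of all genes tested had such groups. An unadjusted p under 0.05 was found for 6 of the 10, against 15.2% of all genes. The median log2 fold change of the 10 was -0.36, beside -0.01 over all genes tested. Chow wild-type was itself uneven along the same genes: library 4 was lowest of its group for 5 members (Per1, Per2, Per3, Nr1d2 and Bhlhe41) and highest for Clock, Npas2 and Cry2, whereas library 1 was highest for Per1, Per2, Per3 and Bhlhe41.

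The promoter sequences of the genes that carry these differences are shown because E-boxes in them are the known contact points of the loop. Each is the 250 bases before the start site, 5′ to 3′ on the strand of the gene, from RefSeq on GRCm38.p6, whereas the submitters' processing notes name GRCm39 as the build of the study. Of the 10 genes, 9 matched the promoter table and Per2 was not among them. Capitals mark exact matches, on either strand, to the E-box CACGTG, to the E′-box CACGTT or to the D-box TTATGTAA, each printed as it reads on the strand of the gene. Bhlhe41 and Cry2 are the 2 genes that fell on chow, Cry1 is the paralog that did not pass, Per3 carries the D-boxes, and Npas2 is the activator gene with the widest range between groups. Their windows are, in that order, chr6:145865421-145865670, chr2:92434070-92434319, chr10:85185055-85185304 and chr4:151044666-151044915 on the minus strand, and chr1:39194022-39194271 on the plus strand.
Bhlhe41: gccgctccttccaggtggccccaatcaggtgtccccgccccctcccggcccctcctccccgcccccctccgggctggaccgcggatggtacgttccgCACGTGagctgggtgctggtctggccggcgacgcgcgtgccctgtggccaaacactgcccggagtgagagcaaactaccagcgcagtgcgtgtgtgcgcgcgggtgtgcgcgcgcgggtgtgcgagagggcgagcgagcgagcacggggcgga
Cry2: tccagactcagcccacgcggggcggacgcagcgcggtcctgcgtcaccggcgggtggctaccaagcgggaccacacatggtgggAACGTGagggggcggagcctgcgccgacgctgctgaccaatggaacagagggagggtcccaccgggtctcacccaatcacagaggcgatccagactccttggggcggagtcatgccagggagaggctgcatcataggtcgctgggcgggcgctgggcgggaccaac
Cry1: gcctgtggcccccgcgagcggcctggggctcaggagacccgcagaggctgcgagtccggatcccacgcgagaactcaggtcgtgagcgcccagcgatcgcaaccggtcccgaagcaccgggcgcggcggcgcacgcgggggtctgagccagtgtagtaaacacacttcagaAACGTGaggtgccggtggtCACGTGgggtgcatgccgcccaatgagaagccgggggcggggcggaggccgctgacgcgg
Per3: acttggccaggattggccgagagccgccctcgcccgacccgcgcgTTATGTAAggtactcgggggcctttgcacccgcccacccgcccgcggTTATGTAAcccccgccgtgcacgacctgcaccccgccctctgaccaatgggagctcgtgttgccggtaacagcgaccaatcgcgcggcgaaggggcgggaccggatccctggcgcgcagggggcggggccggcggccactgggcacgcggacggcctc
Npas2: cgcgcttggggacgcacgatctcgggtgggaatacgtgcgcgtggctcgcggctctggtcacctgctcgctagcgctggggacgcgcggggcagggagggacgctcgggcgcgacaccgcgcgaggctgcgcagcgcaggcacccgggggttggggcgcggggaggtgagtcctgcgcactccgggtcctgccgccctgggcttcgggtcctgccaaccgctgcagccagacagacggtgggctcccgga

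The E-box stood in the windows of 3 of the 9 matched genes, Per1, Cry1 and Bhlhe41, and in 6.02% of all 32851 promoter windows of the same length. The E′-box stood in those of Cry1, Cry2 and Nr1d1 (3 of 9, against 3.85% of all windows). The D-box, bound by the output factors DBP, TEF and HLF, stood only in that of Per3 among the 9, with 2 matches at 205 and 158 bases before the start, and in 0.819% of all windows. No window of the 9 held the core of the REV-ERB and ROR element (TAGGTCA or TGGGTCA, in 5.38% of all windows) or the cAMP response element TGACGTCA (1.55%). Per1 and Clock have several annotated starts, and each was counted once if any of its windows held the motif. The matched motifs did not overlap one another. The E-box or E′-box was thus present both in genes that fell on chow (Bhlhe41, Cry2) and in a gene whose groups overlapped (Cry1), and it was in none of the windows of Npas2, Clock, Nr1d2 and Per3.

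On HFD, none of the 10 clock genes was called between genotypes by edgeR, where 0.31% of all genes were called higher and 0.226% lower. An unadjusted p under 0.05 was found for Per2 and Nr1d2, 2 of 10, against 12.7% of all genes. Per2, the period gene that also answers to heat and glucocorticoids, came nearest: it had 19.9, 26.2, 36.3, 31.8 and 33.5 CPM in HFD knockout 1 to 5, against 3.18, 6.32, 9.13, 12.5 and 20.9 CPM in HFD wild-type 1 to 5. Knockout 2 to 5 lay above every wild-type library, and knockout 1 lay just under wild-type 5. The log2 fold change was 1.50 ± 0.40 (SE, adjusted p = 0.102), a level 2.84-fold higher. DESeq2 (adjusted p = 0.0187) and limma-voom (0.0376) called it as their single member, and so did edgeR without wild-type 5 (1.92, adjusted p = 0.0263). All 5 wild-type libraries belong to another run of library numbers than knockout 2 to 5, so for these 4 libraries genotype and run cannot be told apart. In the fit with runs, where HFD knockout 1 alone stands for the knockout, the value for Per2 was 0.93, which gives no test of the group.

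Nr1d2 had 38.2, 42.1, 55.1, 57.2 and 64.0 CPM in HFD knockout 1 to 5, against 35.5, 38.4, 33.3, 42.8 and 39.6 CPM in HFD wild-type 1 to 5 (0.44 ± 0.17, adjusted p = 0.269). Knockout 3, 4 and 5 were above the wild-type range and the other two were within it. Its relative Nr1d1 had 61.8, 76.4, 102, 121 and 122 CPM in the knockout and 102, 95.5, 76.8, 72.8 and 74.7 CPM in wild-type (0.19 ± 0.16, adjusted p = 0.669), with knockout 1 lowest of all 10 libraries and knockout 4 and 5 highest. The 8 genes with an unadjusted p of 0.05 or more had log2 fold changes from -0.46 (Npas2) to 0.29 (Per1). Cry2 had 23.4, 21.9, 24.7, 20.8 and 17.3 CPM in HFD knockout against 29.9, 24.8, 24.8, 22.1 and 19.6 CPM in HFD wild-type (-0.17 ± 0.11, adjusted p = 0.578). Bhlhe41 had 10.9, 16.6, 14.0, 14.2 and 14.1 CPM in HFD knockout against 13.9, 16.5, 12.2, 12.8 and 11.1 CPM in HFD wild-type, and its change of 0.07 ± 0.18 (adjusted p = 0.908) was -0.08 under scaling by library totals. No HFD groups of any of the 10 genes were free of overlap, where 3.6% of all genes had such groups, and the median of the 10 was 0.13 beside 0.00 over all genes. The 6 endothelial markers summed to 391 to 481 CPM in HFD knockout and 486 to 550 CPM in HFD wild-type, without overlap, and their part in the HFD values was not tested.

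**Figure D2:**
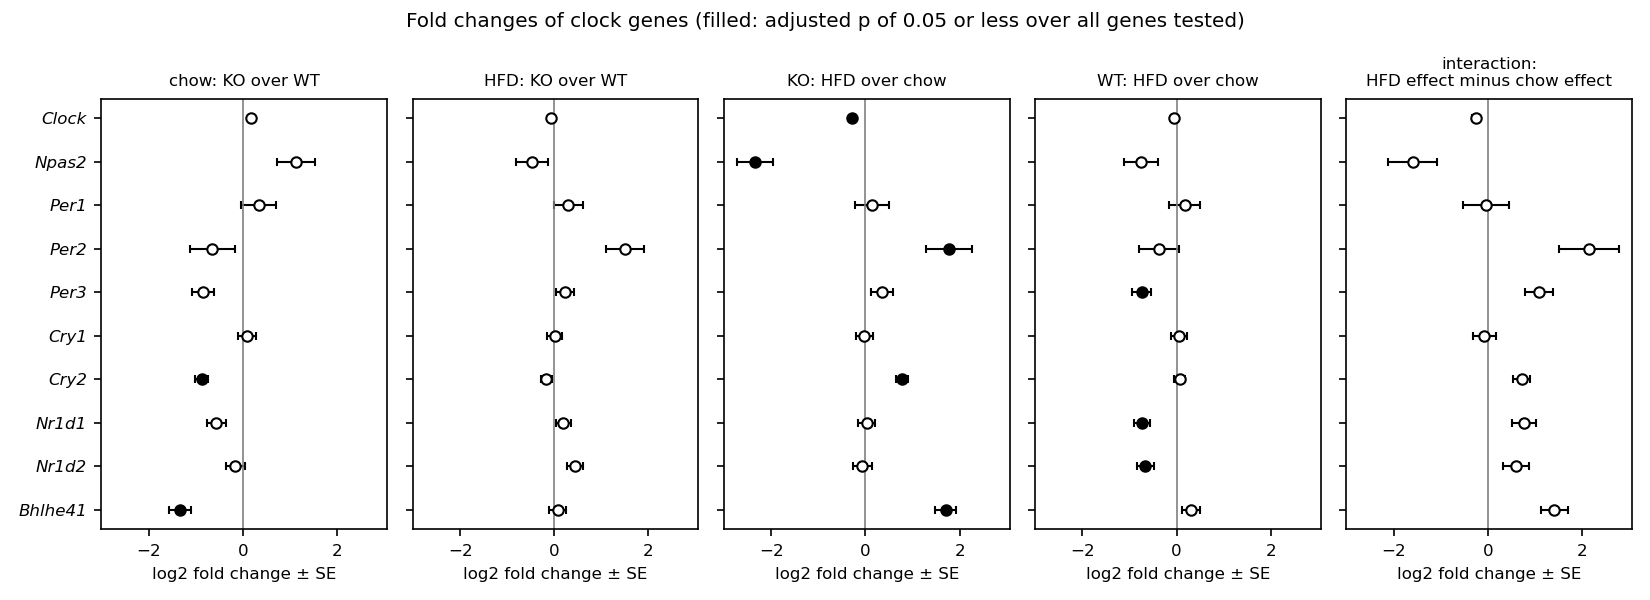
Log2 fold changes (x axis) with SE bars of the 10 clock genes (rows) for 5 comparisons, with filled points where the adjusted p was 0.05 or less. Between genotypes the filled points are Cry2 and Bhlhe41 on chow, the HFD panel has none, and in the knockout Per2, Cry2 and Bhlhe41 lie right of 0 and Npas2 and Clock left of it.

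Between diets, 5 of the 10 clock genes were called in the knockout, repressors higher and activators lower. On HFD, Bhlhe41, Per2 and Cry2 rose and Npas2 and Clock fell relative to chow, where 12.8% of all genes were called higher and 13.1% lower. Counts of members between diets thus stand against a larger share of all genes than those between genotypes. HFD and chow libraries also come from different runs of library numbers and depths, so diet and run cannot be told apart. Summed markers of other cell types moved with diet too, and their part in the diet differences was not tested. The 6 macrophage markers summed to 52.2 to 106 CPM in HFD knockout against 34.2 to 44.2 CPM in chow knockout, and to 62.4 to 137 CPM in HFD wild-type against 39.2 to 42.8 CPM in chow wild-type. Markers of neurons and Schwann cells summed to 103 to 125 CPM in HFD knockout against 25.6 to 34.3 CPM in chow knockout, and to 120 to 149 CPM in HFD wild-type against 33.5 to 57.6 CPM in chow wild-type.

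Npas2 stood at 1.62, 1.11, 0.636, 1.14 and 0.897 CPM in HFD knockout 1 to 5, against 4.74, 6.94 and 4.91 CPM in chow knockout 2 to 4. This was 5.11-fold lower on HFD (log2 fold change -2.35 ± 0.38, adjusted p = 0.000419), the widest difference of any of the 10 genes in any of the 4 comparisons of 2 groups. Clock was 87.5 to 95.2 CPM on HFD and 109.8 to 114 CPM on chow, a small fall of 1.22-fold with tight groups (-0.29 ± 0.06, adjusted p = 0.00246). Under scaling by library totals, which moved the median of all genes by 0.265, the Clock value was -0.02 and not called, or -0.32 relative to the new median.

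Bhlhe41 was 10.9 to 16.6 CPM in HFD knockout and 3.63 to 4.70 CPM in chow knockout, 3.27-fold higher (1.71 ± 0.22, adjusted p = 7.63e-05). Cry2 was 17.3 to 24.7 CPM on HFD and 11.1 to 13.7 CPM on chow (0.78 ± 0.13, adjusted p = 0.000555), so its chow knockout level was the low one among the 4 groups. Per2 was 19.9 to 36.3 CPM on HFD and 7.52 to 10.1 CPM on chow, 3.44-fold higher (1.78 ± 0.49, adjusted p = 0.014), a call that ended without chow knockout 2 (adjusted p = 0.0538) or chow knockout 3 (0.0596). Of the 10 genes, 5 had diet groups in the knockout that did not overlap, against 31.6% of all genes tested. The fit with runs of library numbers has a term for HFD knockout 2 to 5 and leaves out chow wild-type 1 and 2. Its HFD knockout value thus rests on HFD knockout 1 alone and gives no test of the group. It put Per2 at 1.21, Npas2 at -1.77 and Clock at -0.24. Without the muscle-rich libraries Per2 (1.84, adjusted p = 0.0749) and Clock (-0.27, adjusted p = 0.122) were not called.

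In wild-type, 3 clock genes fell on HFD relative to chow and none rose by edgeR, where 15.2% of all genes were called lower and 16.9% higher. They were both REV-ERB genes and Per3, and none of these was called in the knockout. Nr1d1 had 102, 95.5, 76.8, 72.8 and 74.7 CPM in HFD wild-type, against 125, 152, 151 and 134 CPM in chow wild-type, without overlap (-0.74 ± 0.17, adjusted p = 0.00393). Nr1d2 was 33.3 to 42.8 CPM on HFD and 37.4 to 74.1 CPM on chow (-0.67 ± 0.18, adjusted p = 0.00987), overlapping at chow wild-type 4. Per3 was 13.3 to 19.9 CPM on HFD and 14.9 to 36.0 CPM on chow (-0.74 ± 0.20, adjusted p = 0.0113), a call that ended without chow wild-type 1 (adjusted p = 0.0514). The calls of Nr1d2 and Per3 also ended in the fit with runs of library numbers (adjusted p = 0.0795 and 0.504) and without the muscle-rich libraries (0.158 and 0.157). The same fit with runs called Npas2 lower (-1.28, adjusted p = 0.0156) and Bhlhe41 higher (0.82, adjusted p = 0.00268) on HFD, and Npas2 was also called without chow wild-type 2 (adjusted p = 0.0402). Of the 10 genes, 1 had diet groups in wild-type that did not overlap, against 24.8% of all genes.

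Scaling matters for this comparison. Under library totals the median of all genes moved by 0.475, and the calls for Nr1d1 (-0.26), Nr1d2 (-0.20) and Per3 (-0.29) ended while Clock, Cry1, Cry2 and Bhlhe41 were called higher. Under that scaling 10497 of the 17717 genes tested were called higher and 426 lower. Clock, at -0.05 ± 0.06 with TMM scaling, then stood at 0.44, which is -0.06 relative to the moved median. Relative to that median, Nr1d1 lay at -0.75, Nr1d2 at -0.70 and Per3 at -0.78.

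Whether the genotype effect differed between diets was tested as the interaction, the knockout effect on HFD minus that on chow. It was positive for 6 repressor genes and negative for both activator genes among the 8 with an unadjusted p under 0.05, and none passed after adjustment. By edgeR 0 of the 10 genes were called, where 0.0452% of all genes were called higher and 0.0452% lower. DESeq2 called 3 (Bhlhe41, Cry2 and Per3) and limma-voom 0. Neither count has a share of all genes from the same tool beside it. The 8 genes of 10 with an unadjusted p under 0.05 stand against 10.4% of all genes tested. The interaction was 2.15 ± 0.63 for Per2 (SE, adjusted p = 0.228), 1.41 ± 0.29 for Bhlhe41 (0.083), 1.09 ± 0.31 for Per3 (0.205), 0.76 ± 0.25 for Nr1d1 (0.303), 0.72 ± 0.17 for Cry2 (0.157) and 0.60 ± 0.27 for Nr1d2 (0.455). It was -1.59 ± 0.53 for Npas2 (0.295) and -0.24 ± 0.08 for Clock (0.3). The remaining genes, Cry1 (-0.08 ± 0.25) and Per1 (-0.04 ± 0.48), were near 0 and changed sign between alternatives. The 8 values come from the same 17 libraries and the genes regulate one another, so they are not separate pieces of evidence.

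Averaged over diets, the knockout had lower Cry2 (-0.52 ± 0.09, adjusted p = 0.00867) and Bhlhe41 (-0.64 ± 0.14, adjusted p = 0.0278), where 1.54% of all genes were called lower and 1.32% higher. For both, the value is the mean of a chow effect that was called and an HFD effect that was not. Cry2 kept the call without any single library (adjusted p up to 0.0339), but Bhlhe41 lost it without chow wild-type 1 or 2, any of the 3 chow knockout libraries, or HFD wild-type 2 (adjusted p = 0.0518 to 0.0908). Both calls ended without the muscle-rich libraries (adjusted p = 0.222 for Cry2 and 0.309 for Bhlhe41). In the fit with runs of library numbers, Cry2 was -0.44 and Bhlhe41 -0.55. There the HFD knockout value rests on HFD knockout 1 alone.

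Within groups, the levels of several clock genes also followed the library numbers in the labels. In HFD wild-type 1 to 5, which carry consecutive numbers, Per1 was 13.7, 30.1, 42.1, 53.7 and 64.2 CPM, and HFD knockout 1, with the next number, had 55.9 CPM. HFD knockout 2 to 5, the last run, then had 56.6, 52.1, 44.3 and 41.0 CPM. Per2 had 3.18 CPM in the first and 20.9 CPM in the last of the 5 HFD wild-type numbers, a 6.59-fold range inside 1 group, and 19.9 CPM in knockout 1 next to it. Nr1d1 showed the opposite course, with 102 CPM at the first and 74.7 CPM at the last HFD wild-type number, 61.8 CPM in knockout 1, and then 76.4, 102, 121 and 122 CPM in knockout 2 to 5. Cry2 had 29.9 CPM at the first and 19.6 CPM at the last HFD wild-type number.

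The chow libraries were arranged alike. By rising number, Npas2 was 1.72 and 1.12 CPM in chow wild-type 1 and 2, 2.64 and 4.62 CPM in chow wild-type 3 and 4, and 4.74, 6.94 and 4.91 CPM in the chow knockout. Bhlhe41 stood at 14.4 and 13.8 CPM, then 7.54 and 7.53 CPM, then 4.47, 3.63 and 4.70 CPM in the same order. What the numbers follow, such as the order of dissection or of library preparation, is not stated in these sources, and their part in the genotype differences was not tested beyond the fit with runs. In that edgeR fit, which leaves out chow wild-type 1 and 2, 0 of the 10 genes were called between genotypes on chow. Its HFD values rest on HFD knockout 1 alone and give no test between the HFD groups. For Cry2 on chow, the size of the difference was nearly as large within the run (-0.83) as in all libraries (-0.88), whereas for Bhlhe41 it was smaller (-0.82 against -1.34). Within that run the chow wild-type numbers all come before the chow knockout numbers, so genotype and number cannot be told apart there either. For Per2 the wild-type libraries of the same run, at 10.5 and 5.71 CPM, lay on both sides of the knockout range, and for Per3 they stood at 21.5 and 14.9 CPM, above it and within it.

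**Figure D3:**
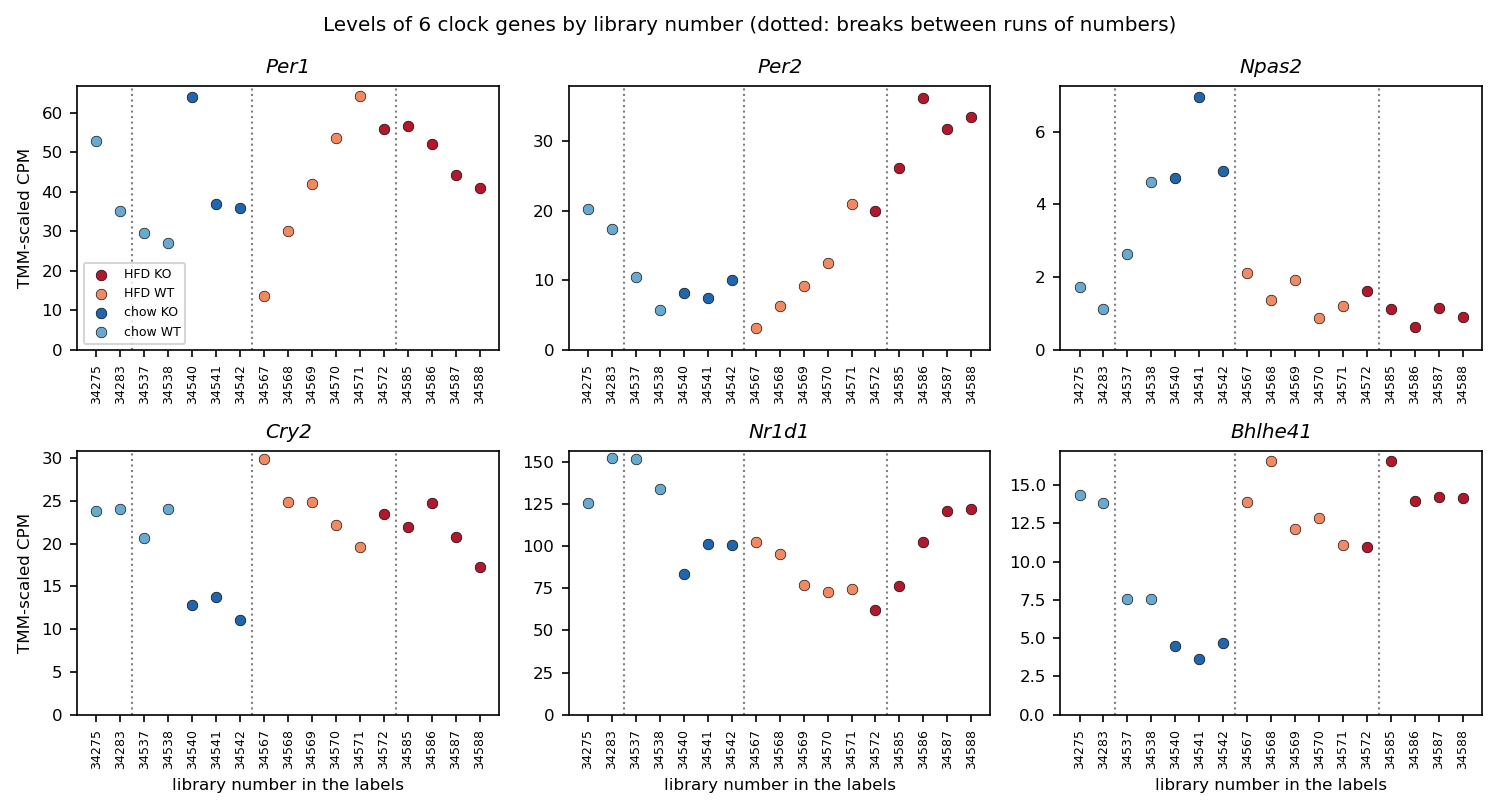
TMM-scaled CPM (y axes, from 0) of 6 clock genes in the 17 libraries, placed on the x axis in order of the library number in the labels, with dotted lines where the numbers break. Per1 climbs and Nr1d1 declines along the HFD wild-type numbers, Per2 is highest at the last numbers, and Npas2 and Bhlhe41 take opposite courses along the chow numbers.

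The group means took various orders. Both activator genes ran chow knockout, chow wild-type, HFD wild-type, HFD knockout from high to low, with means of 5.53 ± 1.23, 2.53 ± 1.53, 1.49 ± 0.51 and 1.08 ± 0.36 CPM for Npas2. HFD wild-type and HFD knockout overlapped, as did chow wild-type and HFD wild-type, and neither step was called. Bhlhe41 ran HFD knockout (14.0 ± 2.01 CPM), HFD wild-type (13.3 ± 2.08 CPM), chow wild-type (10.8 ± 3.80 CPM) and chow knockout (4.27 ± 0.56 CPM), and only the last step was called. Cry2 ran HFD wild-type (24.3 ± 3.83 CPM), chow wild-type (23.2 ± 1.67 CPM), HFD knockout (21.6 ± 2.87 CPM) and chow knockout (12.6 ± 1.35 CPM), where again the last group stood apart. Per2 ran HFD knockout (29.6 ± 6.53 CPM), chow wild-type (13.5 ± 6.61 CPM), HFD wild-type (10.4 ± 6.81 CPM) and chow knockout (8.60 ± 1.31 CPM), and the lower 3 overlapped one another. The other repressor genes had other orders: Per1 was highest in HFD knockout, Cry1 in chow knockout, and Per3, Nr1d1 and Nr1d2 in chow wild-type.

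Spread within groups set these genes apart from each other. On the log2 scale the SD of Clock was 0.03 to 0.12 in the 4 groups, the smallest of the 10 genes in each group except chow wild-type, where Cry2 was lower, and that of Per2 was 0.21 to 1.03. Cry1 was the flattest across groups, with means between 9.62 and 10.2 CPM, a ratio of 1.06 between the highest and the lowest group. Per kilobase of annotated exon (GENCODE M21, lengths of 2.721 to 9.925 kb), Nr1d1 was the most abundant of the 10 at 37.9 CPM per kb over all libraries. Nr1d2 (10.7), Clock (9.94) and Per1 (7.69 CPM per kb) followed with overlapping ranges over libraries. Npas2 was the least abundant at 0.55 CPM per kb.

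**Figure D4:**
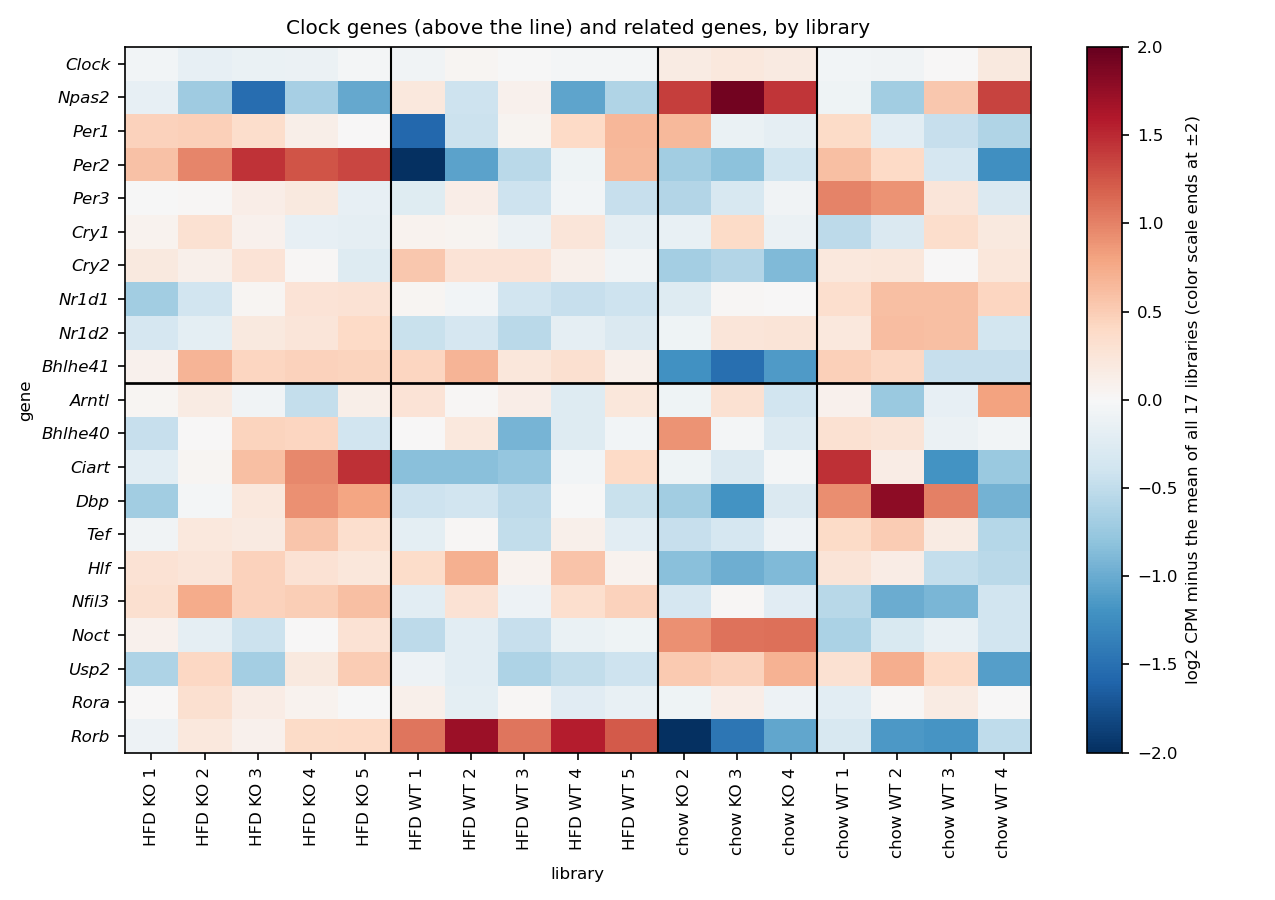
Log2 CPM minus the mean of all 17 libraries (color, from -2 to 2) for the 10 clock genes and 11 related genes (rows) in each library (columns, grouped). The chow knockout columns are high for Npas2 and Noct and low for Bhlhe41, Hlf and Cry2, and chow wild-type 4 differs from the other chow wild-type columns for Per2, Dbp, Usp2 and Arntl.

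Of 8 partners of the loop that were tested, 0 were called between genotypes on chow by edgeR, DESeq2 or limma-voom. By edgeR 3 had an unadjusted p under 0.05 on chow, against 15.2% of all genes. On HFD 1 of the 8, Rorb, fell, where 0.226% of all genes were called lower. Rorb encodes a nuclear receptor of the ROR family, and it stood at 2.04 ± 0.29 CPM in HFD knockout and 4.50 ± 0.95 CPM in HFD wild-type (-1.14 ± 0.20, adjusted p = 0.0204). Arntl, which encodes BMAL1, had means of 11.5 ± 1.89 CPM in HFD knockout, 12.5 ± 1.74 CPM in HFD wild-type, 11.5 ± 2.78 CPM in chow knockout and 12.6 ± 5.76 CPM in chow wild-type, and it was called in none of the 6 comparisons. Bhlhe40, the paralog of Bhlhe41, was not called in any of them either, with 0.18 ± 0.29 on chow and 0.21 ± 0.24 on HFD. Between diets, Rorb and Nfil3, which encodes the repressor that opposes DBP, rose on HFD in both genotypes, by 1.64 ± 0.26 and 0.71 ± 0.17 in the knockout and by 2.09 ± 0.23 and 0.87 ± 0.15 in wild-type (adjusted p up to 0.00599). Among all genes 12.8% were called higher on HFD in the knockout and 16.9% in wild-type. The median of the 8 partners was -0.13 on chow and 0.19 on HFD between genotypes, beside -0.01 and 0.00 over all genes.

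Among 8 output genes, edgeR called 1 higher and 0 lower in the knockout on chow, limma-voom the same numbers, and DESeq2 1 higher and 2 lower. The counts of limma-voom and DESeq2 have no share of all genes beside them. Among all genes tested, edgeR called 0.519% higher and 0.536% lower. By edgeR 5 of the 8 had an unadjusted p under 0.05, against 15.2% of all genes. Knockout groups without overlap were higher for 1 and lower for 2, where 12.8% of all genes had groups without overlap. Noct, which encodes nocturnin, a protein under clock control, was 144 ± 9.70 CPM in chow knockout and 54.9 ± 7.41 CPM in chow wild-type (1.39 ± 0.15, adjusted p = 0.000222). Dbp, a direct target of the CLOCK and BMAL1 pair, had 4.97 ± 1.54 CPM in chow knockout and 15.8 ± 9.52 CPM in chow wild-type without passing the test (-1.66 ± 0.47, adjusted p = 0.0978). Hlf, from the same family, had groups that did not overlap on chow (-0.78 ± 0.19, adjusted p = 0.0552). On HFD 0 of the 8 outputs were called by edgeR, DESeq2 or limma-voom. By edgeR 1 had an unadjusted p under 0.05, against 12.7% of all genes. The interaction of Noct was called (-1.15 ± 0.19, adjusted p = 0.0388). Between diets, in the knockout Hlf (1.20 ± 0.18) and Wee1 (0.52 ± 0.13), a cell cycle kinase gene, rose on HFD and Noct fell (-1.06 ± 0.14), with adjusted p values up to 0.00749. Among all genes 12.8% were called higher and 13.1% lower in that comparison. In wild-type Hlf rose (0.49 ± 0.16, adjusted p = 0.0285) and Dbp fell (-1.32 ± 0.39, adjusted p = 0.0154), where 16.9% of all genes were called higher and 15.2% lower.

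**Figure D5:**
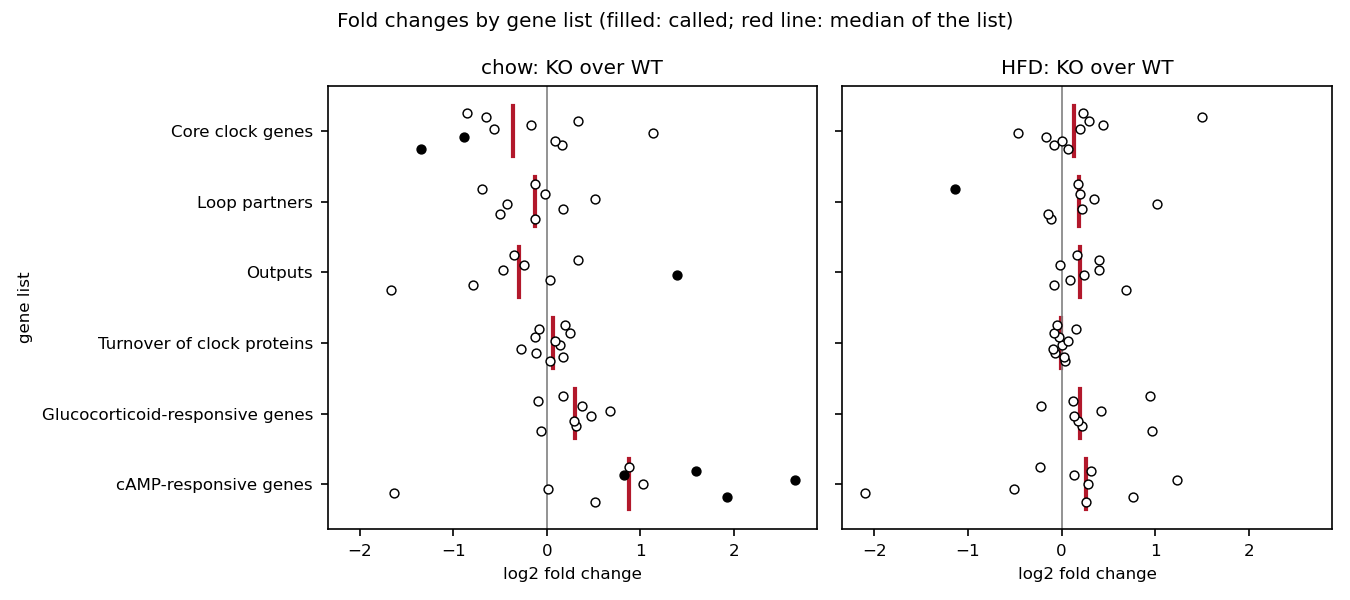
Log2 fold changes of the knockout over wild-type (x axes) on chow and on HFD for the core clock genes and 5 related lists (rows), with filled points for called genes and a red line at the median of each list. On chow the median of the core clock genes lies at -0.36 and that of the cAMP-responsive genes at 0.88.

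For each clock gene, the genes with the most similar course over the 17 libraries were taken by Pearson correlation of log2 CPM among 11504 candidate genes with a mean of at least 1 CPM. The libraries fall into 4 groups and share runs and depth, so these correlations describe the libraries and carry no test. Bhlhe41 was most like Hlf (r = 0.948), Pacsin2 (0.94) and Ndn (0.904). Per2 was most like Dnaja1 (0.901), Hspa8 (0.898) and Plekhf1 (0.896), of which Dnaja1 and Hspa8 encode chaperones of the heat shock families. Clock was most like Lrp6 (0.923), Msh6 (0.907) and Socs2 (0.902), Npas2 was like Zscan22 (0.914) and Klb (0.903), and Cry2 most like Ndn (0.911), Parp16 (0.903) and Pwwp3a (0.901). Nr1d2 was most like Mboat7 (0.926), Adig (0.922) and Uqcc3 (0.91). Cry1, the flattest gene, reached 0.826 at most, with Usp39.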

How the data were processed

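RNA sequencing of brown adipose tissue gave 17 libraries. The authors deposited whole-number counts per gene. Per the submitters' processing notes, the tools were FastQC, STAR (2.7.8a), RSEM (1.3.0) and DESeq on build GRCm39, without their roles, so the counts may be rounded RSEM estimates, which share ambiguous reads among genes. Annotation and strand setting are not stated.

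edgeR 4.0.16 in R 4.3.3 was used: filterByExpr, TMM factors and a quasi-likelihood fit of all 17 libraries with 1 coefficient per group. Two-sided F tests for 6 comparisons were corrected over 17717 genes (Benjamini-Hochberg), and a gene was called at an adjusted p of 0.05 or less. SE is the size of the log2 fold change divided by the square root of F. Totals ran from 39.6 to 105 megacounts, and Npas2 had the fewest counts of the members, 41 to 300 per library.

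The genes named were all 10 members, Dbi, called genes of the related lists in the comparisons described, and the 3 most similar genes per member or the first of them. A few related genes that were not called were added after their values were seen, and 2 genes the rule took are not reported here. Members, lists and tests were chosen with earlier results of these data known. Alternatives were library totals, DESeq2 1.42.0, limma-voom (limma 3.58.1), no filter, only the groups compared, the replicate number as a block, runs of library numbers (without chow wild-type 1 and 2, with a term for HFD knockout 2 to 5), leaving out libraries with over 1000 CPM of muscle markers, muscle and liver scores, and leaving out each library. The pipeline was tested on simulated data.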

Additional observations from a re-analysis of the deposited data

Results flagged for a closer look

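Cry2 in chow wild-type 3 stood at 20.6 CPM, apart from 23.9, 24.0 and 24.1 CPM in the other chow wild-type libraries. The gap to its neighbour made up 93.4% of the range of the group. Of 30 gene and group combinations examined this way, 1 stood apart, and chance gives about 1 in 20.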

How the results depend on the processing

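Leaving out single libraries gave 680 values for the 10 genes, of which 631 kept their sign and their side of the threshold, and the other alternatives gave 520, of which 450 did. Numbers of called clock genes moved as follows. On chow the 2 lower genes became 3 with DESeq2, 1 with limma-voom or with muscle and liver scores, 0 with runs of library numbers or without muscle-rich libraries, and 0 to 3 without single libraries. On HFD 0 higher became 1 with DESeq2 or limma-voom, and 0 to 1 without single libraries. In the knockout between diets the 2 lower genes became 1 under library totals or without muscle-rich libraries. The 3 higher genes became 2 without muscle-rich libraries and 2 to 3 without single libraries. In wild-type between diets the 3 lower genes became 0 under library totals, 1 without muscle-rich libraries and 2 to 4 without single libraries. With runs 2 were lower, Nr1d1 and Npas2, of which Npas2 was not among the 3. The 0 higher became 4 under library totals, where 10497 of the 17717 genes tested were called higher, and 1 with runs. For the interaction 0 higher became 3 with DESeq2, and 0 to 1 without single libraries. For the averaged effect the 2 lower genes became 1 with limma-voom or with scores, 0 without muscle-rich libraries, and 1 to 2 without single libraries. Fits with runs or without muscle-rich libraries hold fewer libraries. Counts with runs are left out for comparisons that involve HFD knockout, where that fit rests on HFD knockout 1 alone. Otherwise the cause was not tested.

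Signs turned under these alternatives, mostly for genes near 0 but also for Per2 on chow, Npas2 on HFD and Per2 between diets in wild-type, which had stood at -0.65, -0.46 and -0.37. Under library totals the log2 fold changes were -0.076 for Bhlhe41 and -0.13 for Cry1 on HFD, 0.23 for Cry1 and 0.19 for Nr1d2 between diets in the knockout, and 0.44 for Clock and 0.076 for Per2 in wild-type. With runs of library numbers they were 0.081 for Per2 and -0.21 for Cry1 on chow, and -0.25 for Cry1 and 0.36 for Per2 between diets in wild-type. The other values of that fit rest on HFD knockout 1 alone for the HFD knockout. On HFD they were -0.28 for Bhlhe41, 0.12 for Npas2 and -0.45 for Nr1d1. Between diets in the knockout they were 0.0045 for Cry1 and -0.62 for Nr1d1. The Cry1 interaction was 0.25, and averaged over diets Cry1 was -0.087 and Nr1d2 -0.017. Without muscle-rich libraries the log2 fold changes were -0.078 for Bhlhe41 and 0.080 for Cry2 on HFD, -0.16 for Nr1d1 between diets in the knockout, and -0.073 for Cry2 and 0.080 for Per2 in wild-type. With muscle and liver scores they were -0.052 for Nr1d1 in the knockout, -0.17 for Per1 in wild-type and 0.45 for the Per1 interaction. With limma-voom they were -0.0059 for Cry1 on HFD, -0.023 for Nr1d1 in the knockout and 0.14 for the Per1 interaction, and without a filter -0.0019 for Cry1 on HFD. The replicate block turned Cry1 between diets in the knockout to 0.087 and the Per1 interaction to 0.019, and it changed no call among the 10 genes. Deviations from the group means of libraries with the same replicate number correlated at -0.08 to -0.15 on chow and -0.72 to 0.21 on HFD between genotypes, so the numbers were not taken as pairs.

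Without single libraries, Cry1 ranged over -0.11 to 0.23 on chow, -0.068 to 0.067 on HFD, -0.12 to 0.16 between diets in the knockout, -0.085 to 0.20 in wild-type, -0.23 to 0.11 for the interaction and -0.050 to 0.12 averaged over diets. Per1 ranged over -0.013 to 0.46 between diets in the knockout, -0.052 to 0.41 in wild-type and -0.28 to 0.29 for the interaction. Nr1d1 ranged over -0.072 to 0.15 and Nr1d2 over -0.17 to 0.023 between diets in the knockout, and Clock over -0.077 to 0.015 and Cry2 over -0.019 to 0.13 in wild-type.

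Scaling by library totals gave 5322 higher and 553 lower genes between diets in the knockout (TMM 2260 and 2319), 10497 and 426 in wild-type (2986 and 2699), 33 and 388 on HFD between genotypes (55 and 40), and 83 and 48 on chow (92 and 95).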

Other observations

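Hormonal inputs to the clock genes were described with lists of genes that answer to glucocorticoids or to cAMP. Of 9 cAMP-responsive genes, edgeR called 4 higher and 0 lower in the knockout on chow, DESeq2 5 and 0, and limma-voom 3 and 0. For DESeq2 and limma-voom the share of all genes is not given. Among all genes tested, edgeR called 0.519% higher and 0.536% lower. The median log2 fold change of the 9 was 0.88 beside -0.01 over all genes. The 4 that edgeR called were the nuclear receptor gene Nr4a3 (2.65 ± 0.39, adjusted p = 0.00534), the deiodinase gene Dio2 (1.92 ± 0.44, adjusted p = 0.0458), the coactivator gene Ppargc1a (1.59 ± 0.29, adjusted p = 0.0161) and the phosphodiesterase gene Pde4d (0.83 ± 0.13, adjusted p = 0.00929). On HFD 0 of the 9 were called by edgeR, 1 by DESeq2 and 0 by limma-voom. By edgeR 4 had an unadjusted p under 0.05 on HFD, against 12.7% of all genes. Among these 4, Fos was lower (-2.10 ± 0.82, adjusted p = 0.271) and the others were higher. The interaction was negative for all 9 and called for 0 by edgeR, 1 by DESeq2 and 0 by limma-voom. Its unadjusted p was under 0.05 for 4 by edgeR, against 10.4% of all genes. Between diets, edgeR called 7 of the 9 lower on HFD in the knockout, where 13.1% of all genes were called lower, and 4 of the 9 in wild-type, where 15.2% were. DESeq2 called 7 and 4 of them lower, and limma-voom 6 and 2.

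Of 8 glucocorticoid-responsive genes, 0 were called between genotypes by edgeR on either diet. On each diet 2 had an unadjusted p under 0.05, against 15.2% of all genes on chow and 12.7% on HFD. DESeq2 and limma-voom each called 1 of the 8 higher on HFD and 0 on chow. Of 10 genes for the turnover of clock proteins, kinases and ubiquitin ligase subunits among them, edgeR, DESeq2 and limma-voom called 0 between genotypes on either diet. By edgeR 1 of the 10 had an unadjusted p under 0.05 on chow and 0 on HFD, against the same shares of all genes.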
